A study of Mus musculus with 14 samples.

Results

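Immunoglobulin variable (V) genes were followed across 14 RNA sequencing libraries of mouse lung. A gene was taken as a member when its symbol began with Ighv (heavy chain), Igkv (kappa light chain) or Iglv (lambda light chain) and its estimated counts, summed over the 14 libraries, reached 100. This rule kept 138 of the 348 V gene rows among 54347 gene rows: 67 of 185 Ighv, 68 of 160 Igkv and 3 of 3 Iglv. The members were chosen by this summed count, which uses no contrast between groups, so their abundance is a description. The 138 members held 97.5% of all V gene counts, 137 were annotated as V genes and 1, Ighv1-2, as a V pseudogene. The other 210 rows included 129 pseudogenes, and 111 of them had no count in any library. Just outside the limit were Ighv2-6-8 with a sum of 93.5 counts and Igkv6-14 with 98.6, and just inside were Igkv5-45 with 102 and Ighv1-85 with 109. One library, subcutaneous RTX 1, gave 33.2% of the members' counts, and 8 members would fall under the limit without it.

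The study has 3 experiments, all on C57BL/6 mice that received intranasal Alternaria alternata extract, a fungal allergen, on 4 days in a row (40 µl holding 2 mg each time). In the bone marrow chimera experiment, irradiated wild-type (WT) recipients (2 libraries) and irradiated human JAK1 GOF (gain-of-function) recipients (2 libraries) received wild-type marrow, so the recipients' own tissue carries the allele. In the second experiment wild-type mice received intrathecal injections, on 2 days, of vehicle (10 µl saline, 2 libraries) or of 25 ng resiniferatoxin (RTX, 3 libraries). RTX is a capsaicin analogue that ablates sensory neurons expressing the channel TRPV1, and the intrathecal route was used to remove spinal visceral afferents. In the third, wild-type mice received subcutaneous injections, over 3 days, of vehicle (100 µl saline, 2 libraries) or of RTX rising through 30, 70 and 100 µg/kg (3 libraries), a route used to remove vagal and spinal afferents. The sources used here do not give which cells of the JAK1 GOF recipients express the allele, or how many host immune cells survived irradiation. They do not give the age or the sex of the mice either. The labels do not say that libraries of a group came from separate mice. The p-values therefore measure the spread between these libraries.

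A B cell joins 1 heavy chain V gene to D and J segments and 1 kappa or lambda V gene to a J segment, and many unrelated clones share each V gene: the clone is marked by the V(D)J junction, which counts per gene do not hold. Plasma cells hold far more immunoglobulin mRNA per cell than resting B cells, and a few expanded or secreting clones can therefore dominate the V reads of a tissue. In mouse, kappa is the main light chain, and B-1 cells, which arise largely in fetal and neonatal life, are known for recurrent heavy and light pairs that bind phosphatidylcholine, Ighv11-2 with Igkv14-126 and Ighv12-3 with Igkv4-91. In bulk lung RNA, fewer cells of a type and less RNA per cell cannot be told apart, and the tables hold counts per gene, so pairing within a cell was not measured.

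The results turn on 8 germline V exons, of which up to the last 300 bases are printed 5′ to 3′ on the coding strand from GENCODE M21 (GRCm38). The first 4 are the B-1 pairs, the next 2 are the genes that dominated the library with the most V reads, and the last 2 are the main lambda genes. In the first 7, capitals run from the last cysteine codon, which closes framework 3, to the end of the exon, where the junction with D or J begins. In Iglv2, capitals mark the 8 printed bases that differ from Iglv1 (9 over the whole exon).
Ighv11-2: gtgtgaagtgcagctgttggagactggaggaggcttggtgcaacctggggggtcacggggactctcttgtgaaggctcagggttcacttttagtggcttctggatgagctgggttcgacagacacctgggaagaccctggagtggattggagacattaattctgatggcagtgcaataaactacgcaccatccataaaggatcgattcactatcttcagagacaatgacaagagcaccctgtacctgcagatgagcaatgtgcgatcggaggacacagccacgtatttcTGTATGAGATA
Igkv14-126: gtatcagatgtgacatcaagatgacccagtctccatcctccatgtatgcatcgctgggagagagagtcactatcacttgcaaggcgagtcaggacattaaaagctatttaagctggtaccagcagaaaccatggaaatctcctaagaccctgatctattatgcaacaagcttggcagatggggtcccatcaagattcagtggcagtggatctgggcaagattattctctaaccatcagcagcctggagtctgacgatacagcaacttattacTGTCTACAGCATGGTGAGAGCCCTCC
Ighv12-3: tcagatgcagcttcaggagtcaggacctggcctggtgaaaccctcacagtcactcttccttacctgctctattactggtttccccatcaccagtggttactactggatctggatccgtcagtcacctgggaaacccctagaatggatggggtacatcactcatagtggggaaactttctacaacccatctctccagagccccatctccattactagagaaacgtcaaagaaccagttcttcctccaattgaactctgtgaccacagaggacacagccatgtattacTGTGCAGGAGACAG
Igkv4-91: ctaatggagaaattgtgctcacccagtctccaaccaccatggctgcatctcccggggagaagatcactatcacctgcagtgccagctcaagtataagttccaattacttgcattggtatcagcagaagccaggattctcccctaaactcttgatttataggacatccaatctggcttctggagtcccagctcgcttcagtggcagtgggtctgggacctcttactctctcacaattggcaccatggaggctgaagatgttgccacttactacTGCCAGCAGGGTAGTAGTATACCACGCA
Ighv1-55: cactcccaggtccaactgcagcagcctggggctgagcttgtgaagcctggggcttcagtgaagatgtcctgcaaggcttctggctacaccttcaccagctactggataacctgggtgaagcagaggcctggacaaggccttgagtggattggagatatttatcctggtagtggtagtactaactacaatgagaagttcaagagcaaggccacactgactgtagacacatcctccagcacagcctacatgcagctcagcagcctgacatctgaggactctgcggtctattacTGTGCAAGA
Igkv12-89: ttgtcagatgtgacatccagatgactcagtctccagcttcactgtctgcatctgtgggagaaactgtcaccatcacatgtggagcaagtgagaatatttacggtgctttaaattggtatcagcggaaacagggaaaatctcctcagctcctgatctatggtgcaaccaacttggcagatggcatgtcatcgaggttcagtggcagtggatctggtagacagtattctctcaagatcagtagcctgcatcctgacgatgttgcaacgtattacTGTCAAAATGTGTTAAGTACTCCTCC
Iglv1: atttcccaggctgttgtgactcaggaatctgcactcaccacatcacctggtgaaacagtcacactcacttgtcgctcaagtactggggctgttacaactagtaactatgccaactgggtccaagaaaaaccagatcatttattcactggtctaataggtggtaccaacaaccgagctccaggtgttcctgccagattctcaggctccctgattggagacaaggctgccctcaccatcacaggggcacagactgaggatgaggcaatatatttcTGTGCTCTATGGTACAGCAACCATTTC
Iglv2: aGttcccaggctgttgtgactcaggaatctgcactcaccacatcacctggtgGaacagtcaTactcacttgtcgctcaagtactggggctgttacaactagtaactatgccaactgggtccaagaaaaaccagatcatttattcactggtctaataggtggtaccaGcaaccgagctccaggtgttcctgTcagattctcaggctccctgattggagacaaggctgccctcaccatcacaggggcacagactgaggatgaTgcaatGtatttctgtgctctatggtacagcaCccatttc

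These stretches lie at chr12:114048241-114048540 (Ighv11-2), chr12:114366521-114366820 (Ighv12-3), chr12:115208095-115208394 (Ighv1-55), chr6:67896345-67896642 (Igkv14-126), chr6:68768555-68768854 (Igkv4-91), chr6:68834846-68835143 (Igkv12-89), chr16:19085017-19085316 (Iglv1) and chr16:19260401-19260700 (Iglv2). Each is from exon 2 of 2 of its gene, on the minus strand except for Igkv14-126, which is on the plus strand. The Ighv members lie on chromosome 12, the Igkv members on chromosome 6 and the Iglv members on chromosome 16. V exons resemble each other, and reads can be split among relatives. For 77 of the 138 members another V gene row had a V exon of at least 95% identity, and the median identity to the nearest relative was 95.6%. Ighv11-2 was 98.7% identical to Ighv11-1, which is not a member, and Ighv1-55 was 96.7% identical to Ighv1-62. Iglv1 and Iglv2 were 97.0% identical, so their sum is firmer than their split. The other printed genes had no relative at 95%: the nearest to Igkv14-126 was 90.9% identical, to Igkv4-91 88.0%, to Igkv12-89 85.9% and to Ighv12-3 80.0%.

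Library totals were 18198872 to 24393000 counts, and 3 counts in a library correspond to 0.123 to 0.165 CPM (counts per 1e+06 counts of the library). The 14 libraries carry 3 expression states of 2 transcripts, Rps3a2 and Hmga2. State A (Rps3a2 over 2 CPM) held WT recipient 1, both intrathecal saline libraries and subcutaneous RTX 2 and 3, and state C (neither over 2 CPM) held subcutaneous saline 2 and subcutaneous RTX 1. The other 7 were in state B (Hmga2 over 2 CPM), among them all 3 intrathecal RTX libraries, so in the intrathecal experiment state and treatment cannot be told apart. Replicates differed by more than counting noise in every pair (chi-square per degree of freedom 8.91 to 21.3), so each library was counted as 1 sample. Of the 138 members, 106 had reads in every library and 64 had at least 3 counts in every library.

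The summed level of the 138 V genes separated the chimera groups and varied widely within both RTX groups. The WT recipients had 269 and 271 CPM and the JAK1 GOF recipients 120 and 117 CPM. Intrathecal saline libraries had 156 and 66.2 CPM, and intrathecal RTX libraries had 78.8, 380 and 84.7 CPM. Subcutaneous saline libraries had 624 and 353 CPM, and subcutaneous RTX libraries had 1662, 425 and 443 CPM. The chimera groups did not overlap, with JAK1 GOF recipients at 0.440 of the WT recipient mean (log2 ratio −1.19, against a pooled SD of 0.02). In both RTX experiments the groups overlapped and 1 RTX library carried the higher mean. Intrathecal RTX 2 was 4.64 times the mean of the other 2 RTX libraries, and subcutaneous RTX 1 was 3.83 times. The ratios of group means were 1.63 for intrathecal and 1.73 for subcutaneous RTX, log2 ratios of 0.71 and 0.79 against pooled SDs of 1.16 and 0.97. Without intrathecal RTX 2 the log2 ratio was −0.44, and without subcutaneous RTX 1 it was −0.17, so both changed sign. The highest library had 25.1 times the level of the lowest.

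**Figure D1:**
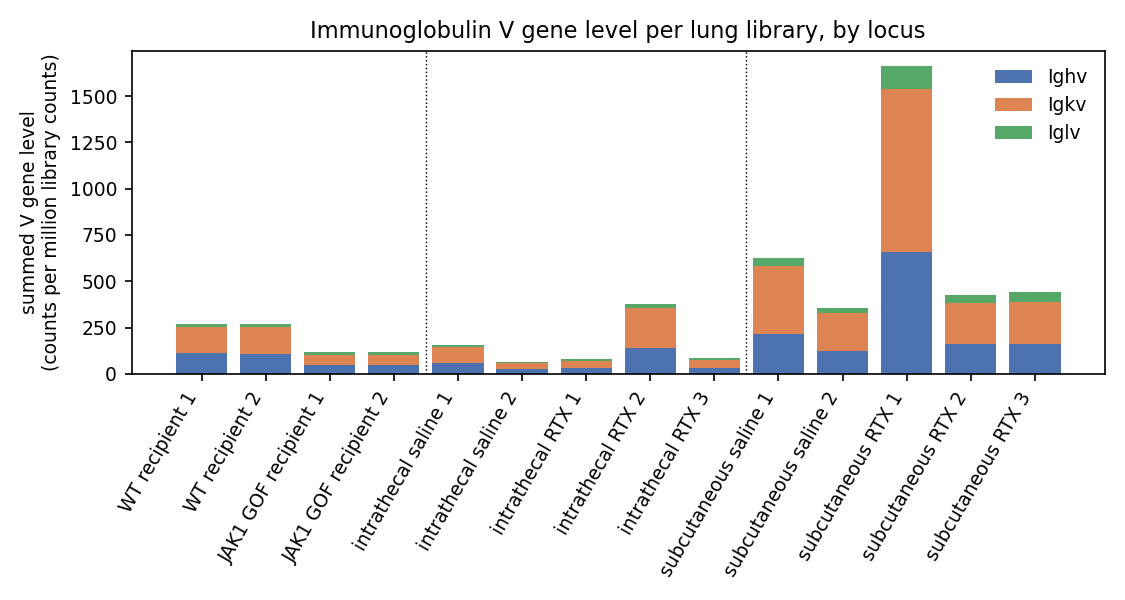
Summed level of the 138 V genes in each of the 14 lung libraries, in CPM, stacked by locus (Ighv heavy, Igkv kappa, Iglv lambda), with dotted lines between the 3 experiments. The JAK1 GOF recipients stand at 120 and 117 against 269 and 271 in the WT recipients, and subcutaneous RTX 1 stands at 1662.

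In the chimera experiment summed heavy and kappa V levels were lower in the JAK1 GOF recipients, and summed lambda levels overlapped. The heavy chain genes summed to 113 and 109 CPM in the WT recipients and to 45.7 and 45.1 CPM in the JAK1 GOF recipients, a ratio of means of 0.410. Kappa genes summed to 138 and 147 CPM in the WT recipients and to 56.2 and 55.8 CPM in the JAK1 GOF recipients, a ratio of 0.394. Lambda genes summed to 18.5 and 15.2 CPM in the WT recipients and to 18.5 and 15.9 CPM in the JAK1 GOF recipients, a ratio of 1.02. The heavy and kappa sums did not overlap between the groups, and the lambda sums did.

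Of the 138 V genes, 107 passed the filter on low counts in this experiment, and 7 of them fell and 0 rose at an adjusted p under 0.05 by edgeR's quasi-likelihood test. Over all 17298 genes tested, 0.717% were called in either direction, 0.543% lower and 0.173% higher. The fitted log2 fold change was negative for 97 of the 107, with a median of −1.45 beside 0.00 over all genes. The filter keeps a gene that reaches its limit in any 2 libraries, so a gene can pass through the WT recipients alone. The counts and medians over the 107 are tilted towards lower values by this filter. Over all 138 members the groups did not overlap for 83 lower and 3 higher, without the share of all genes beside them. At an unadjusted p under 0.05, 55 were lower and 1 higher. The share of all genes is not given for that p or for the other settings named at the end of this paragraph. Those counts therefore only describe the members and cannot be set against a background. The 2 libraries of each group did not overlap for 70 of the 107 in the lower direction, against 23% of all genes, and for 2 in the higher direction, against 19.6% of all genes. By locus, 6 of 49 Ighv genes and 1 of 55 Igkv genes fell, with medians of −1.55 and −1.45, and 0 of 3 Iglv genes were called, with a median of −0.25. The number of calls depended on the libraries and the tool: 36 were called without WT recipient 1, 27 without WT recipient 2, 4 without JAK1 GOF recipient 2, 21 by DESeq2, 2 by limma voom, 46 with no filter and 0 in a fit of all 14 libraries.

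The 7 were 6 heavy chain genes and 1 kappa gene. Among them Ighv3-6, Ighv5-4, Igkv8-21 and Ighv1-74 passed the filter through the WT recipients alone. Ighv8-12 stood at 5.78 and 6.60 CPM in the WT recipients and at 0.761 and 0.769 CPM in the JAK1 GOF recipients. It fell by 3.00 ± 0.32 (log2, SE; edgeR quasi-likelihood, adjusted p = 0.0048). Ighv2-2 stood at 4.64 and 3.91 CPM against 0.766 and 0.829 CPM, and fell by 2.41 ± 0.34 (edgeR, adjusted p = 0.0158). These were the 2 genes that limma voom also called. Ighv1-64, the leading V gene of WT recipient 2, stood at 8.03 and 13.3 CPM against 2.76 and 1.84 CPM, and fell by 2.18 ± 0.31 (edgeR, adjusted p = 0.0183). Ighv3-6 stood at 2.65 and 3.59 CPM against 0.428 and 0.440 CPM, and fell by 2.79 ± 0.42 (edgeR, adjusted p = 0.0183). In each of these genes the lower WT recipient was above the higher JAK1 GOF recipient. Ighv5-4 stood at 2.33 and 1.63 CPM against 0.316 and 0.166 CPM (−2.98 ± 0.53, edgeR adjusted p = 0.0331), and Igkv8-21 at 1.29 and 2.69 CPM against 0.179 and 0.330 CPM (−2.96 ± 0.59, edgeR adjusted p = 0.0467). Ighv1-74 stood at 1.54 and 0.814 CPM against 0 and 0.0549 CPM (edgeR, adjusted p = 0.0324). Its summed counts were 49 in the WT recipients and 1 in the JAK1 GOF recipients, a ratio per library count of 0.0211 with an exact 95% interval of 0.000524 to 0.123, which covers counting error only. Ighv5-4, Igkv8-21 and Ighv1-74 were not called when either JAK1 GOF library was left out, nor Igkv8-21 without WT recipient 2, Ighv3-6 was not called without JAK1 GOF recipient 1, and Ighv1-64 not without JAK1 GOF recipient 2. A joint fit with library state as a term also called 7, of which Ighv3-6, Ighv1-64, Ighv5-4 and Igkv8-21 were among those above. Ighv2-2, Ighv1-64, Ighv1-74 and Ighv5-4 each have a relative of at least 95% identity, Ighv2-4 at 98.0% for Ighv2-2.

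**Figure D2:**
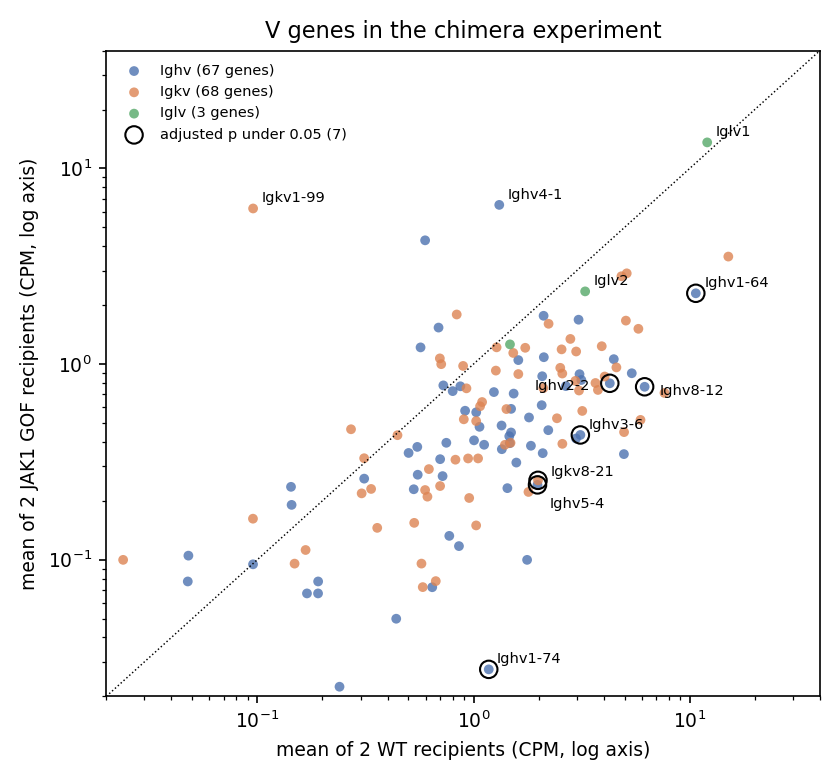
Mean CPM of each of the 138 V genes in the 2 JAK1 GOF recipients (vertical, log axis) against the 2 WT recipients (horizontal, log axis), coloured by locus, with the 7 genes past the adjusted p threshold ringed and equality dotted. Most genes lie under the dotted line, while Iglv1, Ighv4-1 and Igkv1-99 lie above it.

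Ighv4-1, Iglv1 and 2 genes that were high in 1 library were among those without the lower level. Iglv2 was lower without overlap but by less than the median V gene. Of the tested members 10 had a positive fitted change. They included Igkv4-55 (log2 0.48 ± 0.47, edgeR adjusted p = 0.757), without overlap. They also included Ighv11-2 (1.11 ± 1.55, edgeR adjusted p = 0.850) and Igkv14-126 (1.12 ± 1.16, edgeR adjusted p = 0.788). Ighv4-1 stood at 0.476 and 2.15 CPM in the WT recipients and at 7.20 and 5.83 CPM in the JAK1 GOF recipients, with no overlap (log2 2.31 ± 0.57, edgeR adjusted p = 0.175, not called; DESeq2 adjusted p = 0.00119). Iglv1, the main lambda gene, stood at 13.2 and 10.9 CPM against 15.5 and 11.7 CPM (log2 0.19 ± 0.19, edgeR adjusted p = 0.766), and Iglv2 at 3.34 and 3.23 CPM against 2.20 and 2.50 CPM (−0.47 ± 0.30, edgeR adjusted p = 0.599). Iglv3, the third lambda gene, stood at 1.90 and 1.05 CPM against 0.851 and 1.67 CPM. Without JAK1 GOF recipient 1 the Iglv1 value was −0.0353. Igkv1-99 and Ighv7-3 were high in 1 library only: Igkv1-99 reached 12.4 CPM in JAK1 GOF recipient 2, while the other 3 chimera libraries had 0.143 CPM or less, and Ighv7-3 reached 8.14 CPM there, beside 0.813 CPM or less elsewhere in the experiment.

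Constant region and B cell genes were read beside the V genes. The ratio of summed Igkv members to the kappa constant gene Igkc was 0.860 to 1.06 in all 14 libraries. Igkc stood at 142 and 147 CPM in the WT recipients and at 65.1 and 62.5 CPM in the JAK1 GOF recipients, and fell by 1.17 ± 0.12 (edgeR, adjusted p = 0.0048). Of 11 tested constant region genes, 4 fell and 0 rose: Igkc, Ighg2c, Ighg2b and Igha, which encodes the IgA heavy chain. Igha stood at 257 and 172 CPM against 98.7 and 75.7 CPM. Ighg3, not called, was high in 1 library, with 37.7 CPM in JAK1 GOF recipient 2. It stood at 0.667 and 1.34 CPM in the WT recipients and at 0.627 CPM in JAK1 GOF recipient 1. Igkv1-99 and Ighv7-3 were high in that same library. Of 16 B cell identity genes 1 fell (Fcer2a, the low-affinity IgE receptor), of 13 plasma cell genes 1 fell (Jchain, which joins polymeric IgA and IgM), and of 6 germinal centre and V(D)J recombination genes 0 were called. The 16 B cell identity genes summed to 296 to 305 CPM in the WT recipients and to 189 to 205 CPM in the JAK1 GOF recipients. V gene CPM per CPM of these B cell genes was 0.882 and 0.914 in the WT recipients and 0.588 and 0.620 in the JAK1 GOF recipients, again without overlap. Of 14 T cell genes, 4 fell (summed 217 to 253 against 112 to 153 CPM), and 7 of 10 heart muscle genes rose (summed 261 to 373 against 586 to 589 CPM). Xist stood at 122 and 132 CPM in the WT recipients and at 62.9 and 73.2 CPM in the JAK1 GOF recipients. The 8 lung epithelium genes summed to 20504 to 22521 CPM in the WT recipients and to 25702 to 27007 CPM in the JAK1 GOF recipients, with 0 called. The part of the T cell, heart muscle, epithelium and Xist differences in the V gene result was not tested.

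Lambda took a larger share of light chain V counts in the JAK1 GOF recipients and in the subcutaneous RTX libraries than in their controls. Lambda made up 11.8% and 9.37% of light chain V counts in the WT recipients and 24.8% and 22.2% in the JAK1 GOF recipients. In the subcutaneous experiment it made up 10.4% and 11.9% with saline and 12.6%, 16.4% and 19.2% with RTX. Neither pair of groups overlapped. In the intrathecal experiment it made up 12.5% and 13.6% with saline and 16.3%, 9.84% and 19.3% with RTX, so those groups overlapped. In the chimera experiment lambda CPM overlapped and kappa CPM was lower. In the subcutaneous experiment lambda CPM was 42.2 and 27.0 with saline and 126, 43.7 and 54.3 with RTX, a ratio of 2.15 beside 1.57 for kappa. Without subcutaneous RTX 1 these ratios were 1.41 and 0.797, so kappa changed direction. The shares are scores over chosen genes and were not tested. By CPM the lambda constant genes Iglc1, Iglc2 and Iglc3 each overlapped between the groups of the chimera and of the subcutaneous experiment. Iglc1 stood at 8.76 and 6.52 CPM with subcutaneous saline and at 26.3, 7.31 and 16.0 CPM with RTX. Igkc stood at 425 and 227 CPM with subcutaneous saline and at 1007, 220 and 223 CPM with RTX. The ratio of light to heavy chain V counts was 1.39 to 1.89 in the 14 libraries.

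**Figure D3:**
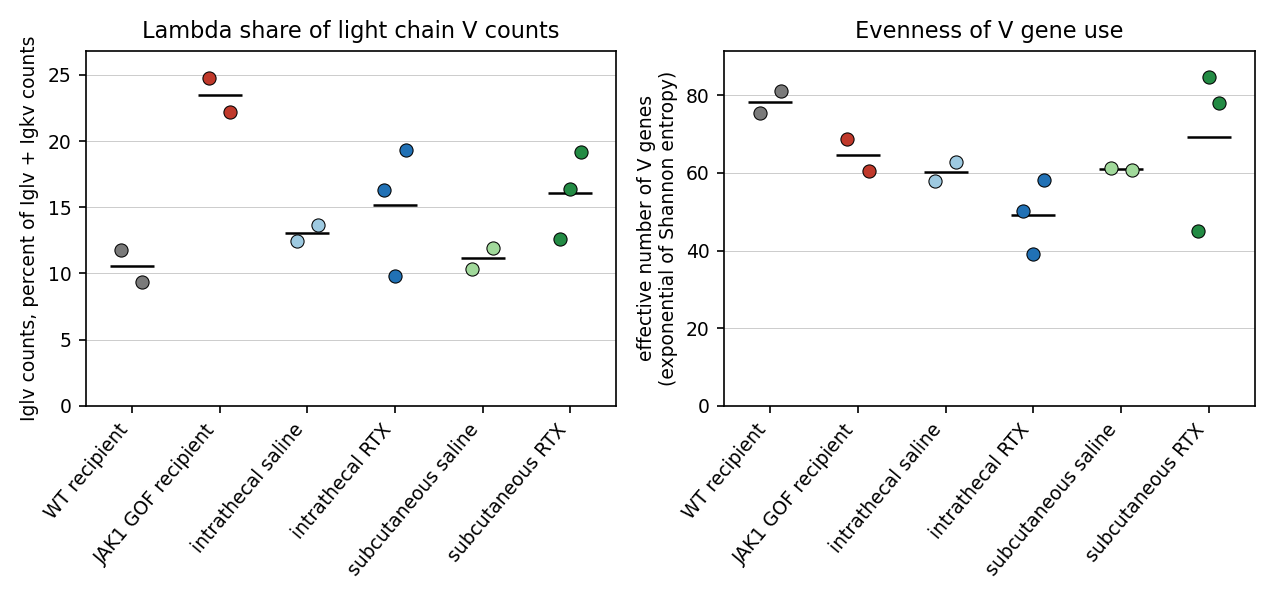
Left, lambda V counts as a percent of all light chain V counts; right, effective number of V genes; each point is 1 library and each bar the mean of its group. The JAK1 GOF recipients stand at 24.8% and 22.2% lambda against 11.8% and 9.37% in the WT recipients, and the subcutaneous RTX libraries spread from 45.0 to 84.8 effective genes.

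Evenness of V gene use was measured as the effective number of V genes, the number of equally used genes that would give the library's Shannon entropy. It was 75.5 and 81.0 in the WT recipients and 68.8 and 60.4 in the JAK1 GOF recipients, which did not overlap (difference of means −13.7, pooled SD 5.02). With intrathecal saline it was 57.8 and 62.7, and with intrathecal RTX 50.1, 39.0 and 58.2 (difference −11.2, pooled SD 8.11). With subcutaneous saline it was 61.3 and 60.6, and with subcutaneous RTX 45.0, 84.8 and 77.9 (difference 8.31, pooled SD 17.4). The subcutaneous RTX libraries lay on both sides of their controls, and the intrathecal groups overlapped. The chimera difference depended on the measure. The expected number of V genes seen in 1460 counts, the depth of the shallowest library, was 127 and 127 in the WT recipients and 131 and 128 in the JAK1 GOF recipients, the other direction. Within a locus the difference was −4.76 for Ighv and −0.48 for Igkv. Among members with a sum of at least 1000 it was −2.29, and the intrathecal and subcutaneous differences were −0.98 and −0.72 there. A locus or the higher limit holds fewer genes, so the sizes of these differences are on a smaller scale than −13.7. At the higher limit the subcutaneous difference also changed sign, from 8.31 to −0.72. The inverse Simpson index, a second measure of evenness, was lower in the JAK1 GOF recipients also, with a mean of 30.6 against 50.7 in the WT recipients. The number of different V genes seen and the evenness of their use thus differed in direction, with no test of either.

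Dominance was read as the share of V counts in the leading genes. The 10 leading V genes of each library held 34.6% and 34.5% of V counts in the WT recipients and 39.5% and 45.3% in the JAK1 GOF recipients. They held 48.8% and 43.4% with intrathecal saline and 52.2%, 60.3% and 46.0% with intrathecal RTX. With subcutaneous saline they held 46.8% and 47.7%, and with subcutaneous RTX 56.4%, 32.2% and 36.7%. The fewest genes that together held 50% of V counts were 7 in intrathecal RTX 2 and in subcutaneous RTX 1, the 2 libraries with the highest V level of their groups, and the most were 23 in subcutaneous RTX 2. The differences of group means were 7.85 percentage points in the chimera, 6.73 in the intrathecal and −5.49 in the subcutaneous experiment, beside pooled SDs of 2.93, 6.25 and 10.5.

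**Figure D4:**
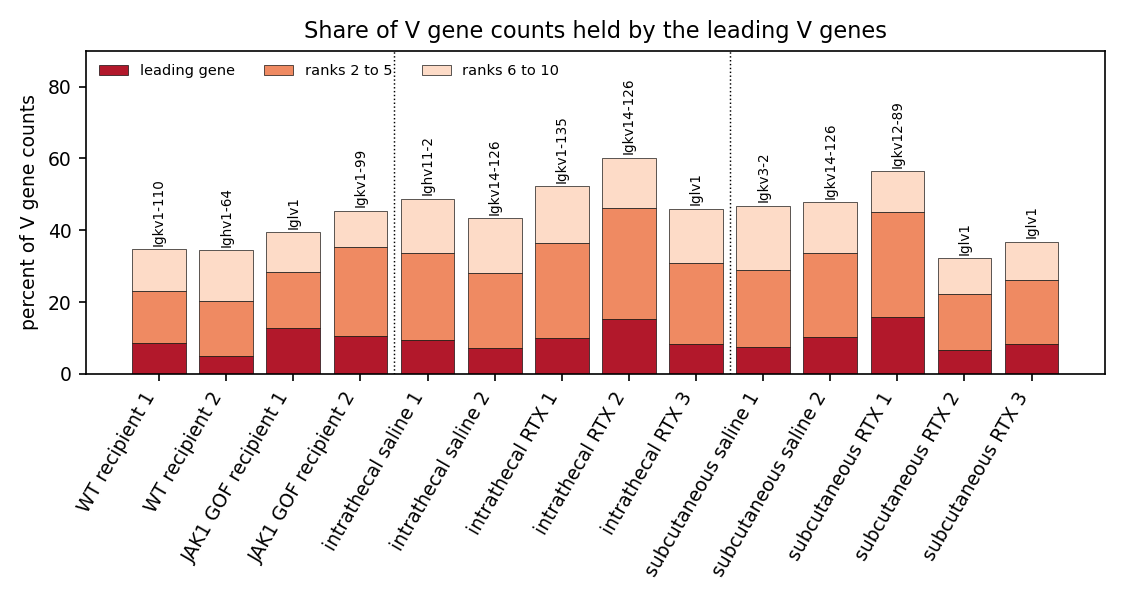
Percent of V gene counts held by the leading gene, by ranks 2 to 5 and by ranks 6 to 10 in each library, with the leading gene named above each bar. The summed share of the 10 leading genes runs from 32.2% in subcutaneous RTX 2 to 60.3% in intrathecal RTX 2.

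The leading gene differed between libraries of 1 group. Iglv1 led in JAK1 GOF recipient 1 (12.8% of V counts), intrathecal RTX 3 (8.32%), subcutaneous RTX 2 (6.59%) and subcutaneous RTX 3 (8.32%). Igkv14-126 led in intrathecal saline 2 (7.28%), intrathecal RTX 2 (15.3%) and subcutaneous saline 2 (10.2%), and Ighv11-2, its B-1 partner, in intrathecal saline 1 (9.55%). Each of the other 6 libraries had a leader of its own: Igkv1-110 in WT recipient 1 (8.51%), Ighv1-64 in WT recipient 2 (4.93%), Igkv1-99 in JAK1 GOF recipient 2 (10.6%), Igkv1-135 in intrathecal RTX 1 (10.0%), Igkv3-2 in subcutaneous saline 1 (7.46%) and Igkv12-89 in subcutaneous RTX 1 (15.8%). Across all 14 libraries Ighv11-2 had the highest mean share of heavy chain V counts, 12.7%, followed by Ighv1-55 with 7.59%. Igkv14-126 led kappa with 10.3%, ahead of Igkv1-110 with 6.40% and Igkv4-91 with 6.15%. Iglv1 held 64.5% of lambda counts, Iglv2 28.2% and Iglv3 7.29%.

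The B-1 pairs were chosen after their values were seen. Of their 4 genes, Ighv11-2, Igkv14-126 and Ighv12-3 were lower in every chimera library than in every non-transplanted library, and Igkv4-91 overlapped. Ighv11-2 stood at 0.0476 and 1.09 CPM in the WT recipients and at 2.20 and 0.238 CPM in the JAK1 GOF recipients. It stood at 14.9 and 4.32 CPM with intrathecal saline, at 5.53, 48.6 and 5.25 CPM with intrathecal RTX, at 22.8 and 28.3 CPM with subcutaneous saline and at 82.4, 6.18 and 14.5 CPM with subcutaneous RTX. Every non-transplanted library was above every chimera library. Its partner Igkv14-126 stood at 0.334, 1.34, 3.20 and 0.390 CPM in the 4 chimera libraries, in the same order, and at 4.82 to 93.1 CPM in the 10 others. The ratio of Ighv11-2 to Igkv14-126 was 0.687 to 1.00 in those 10 libraries. Ighv12-3 was at most 0.239 CPM in the chimeras and at least 1.53 CPM in the 10 others, where its ratio to Igkv4-91 was 0.302 to 0.859. Igkv4-91 stood at 4.05, 1.10, 0.403 and 0.379 CPM in the 4 chimera libraries and at 2.7 to 36.9 CPM in the 10 others. Ighv11-2, Ighv12-3, Igkv14-126 and Igkv12-89 were the 4 members with every chimera CPM under every non-transplanted CPM, and 0 members had the opposite pattern. How many of all genes were split in this way was not counted, so the 4 are a description only. Xist, expressed from the inactive X chromosome, stood at 62.9 to 132 CPM in the chimera libraries and at 0.913 to 5.11 CPM in the others, along the same divide. The sex of the mice is not given in the sources used here. Irradiation, transplantation, experiment, sex and the Xist difference cannot be told apart here, and the levels are set across separately deposited tables.

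Both B-1 pairs together held 1.74% and 1.36% of V counts in the WT recipients and 4.85% and 0.956% in the JAK1 GOF recipients. They held 27.0% and 22.3% with intrathecal saline and 21.2%, 42.0% and 19.2% with intrathecal RTX. With subcutaneous saline they held 16.3% and 28.9%, and with subcutaneous RTX 13.0%, 5.37% and 9.92%. The subcutaneous groups did not overlap, with RTX lower, and the intrathecal groups did. A share depends on the other genes: Ighv1-55 and Igkv12-89 held 29.6% of V counts in subcutaneous RTX 1 and 11.0% in subcutaneous saline 1. The part of those genes in the lower share of the B-1 pairs was not tested. Igkv4-91 was also lower by level in the subcutaneous RTX libraries, at 25.2, 5.89 and 6.68 CPM against 36.0 and 27.0 CPM (log2 −1.34 ± 0.75, edgeR adjusted p = 0.429, not called; without subcutaneous RTX 1, −2.34 and adjusted p = 0.0190). Ighv12-3 stood at 14.6, 1.78 and 4.19 CPM against 13.4 and 10.7 CPM. The first pair had positive fitted changes, with Ighv11-2 at 0.42 ± 1.32 (edgeR adjusted p = 0.898) and Igkv14-126 at 0.29 ± 1.21 (edgeR adjusted p = 0.924), and RTX 1 was above both saline libraries while RTX 2 and 3 were below both. Outside the 2 pairs, summed V levels with subcutaneous RTX were 1447, 402 and 399 CPM and with saline 522 and 251 CPM, a ratio of means of 1.94, and 1.04 without RTX 1. In the intrathecal experiment the ratio outside the pairs was 1.42, beside 1.63 for all V genes, and 0.791 without RTX 2.

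**Figure D5:**
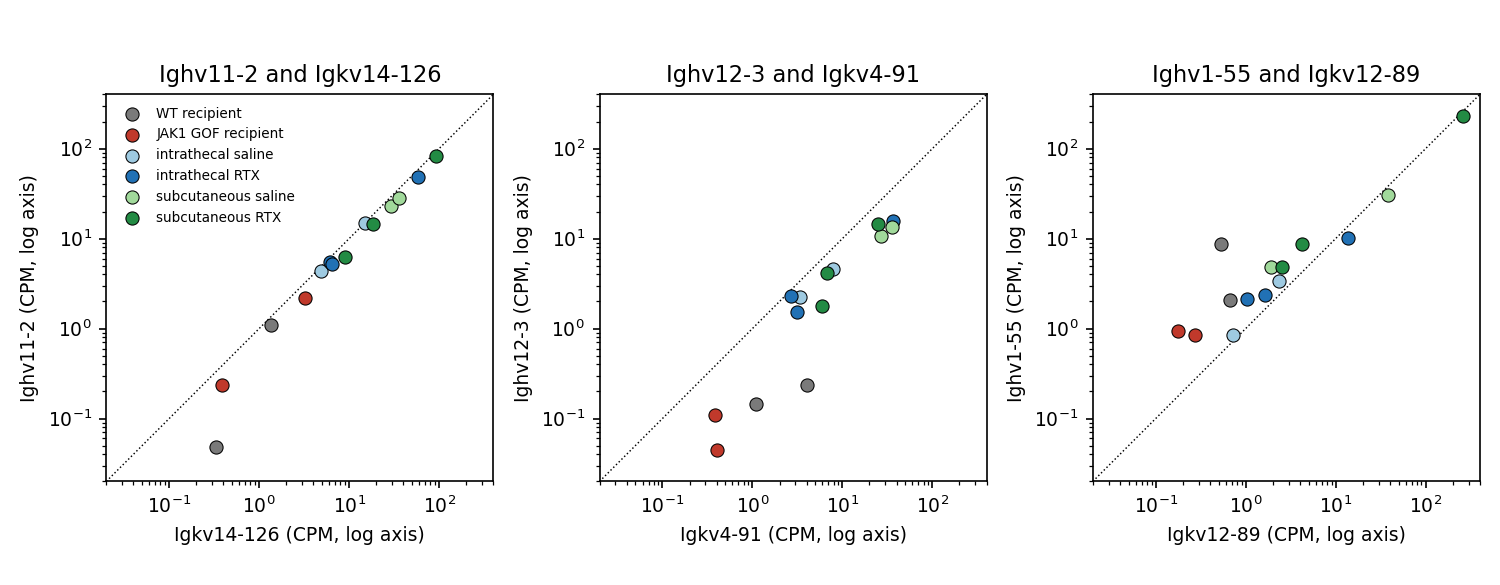
Heavy chain V gene CPM (vertical, log axis) against light chain V gene CPM (horizontal, log axis) in each library, for Ighv11-2 with Igkv14-126, Ighv12-3 with Igkv4-91, and Ighv1-55 with Igkv12-89; the dotted line marks equal CPM. The Ighv11-2 pair runs along the line at a ratio of 0.687 to 1.00 in the 10 non-transplanted libraries, and Ighv1-55 and Igkv12-89 reach 229 and 263 CPM in subcutaneous RTX 1.

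In subcutaneous RTX 1 a heavy and a light chain gene stood above all other V genes. Ighv1-55 stood at 30.9 and 4.81 CPM with subcutaneous saline and at 229, 4.88 and 8.62 CPM with RTX. Igkv12-89 stood at 38.0 and 1.92 CPM with saline and at 263, 2.52 and 4.22 CPM with RTX. Among the subcutaneous libraries both were high in the same 2, RTX 1 and saline 1, and together they held 29.6% of V counts in RTX 1. In intrathecal RTX 2 they stood at 10.2 and 13.6 CPM and held 6.28% of V counts, the most of any intrathecal library. Without these genes subcutaneous RTX 1 still had 1170 CPM of V genes, above the other 4 subcutaneous libraries at 347 to 555 CPM. Its effective number was then 70.4 in place of 45.0. The IgM heavy chain gene Ighm stood at 2990 CPM in RTX 1 and at 406 to 1064 CPM in the other 4, while Igha stood at 143 CPM in RTX 1 and at 89.6 to 259 CPM in the other 4. Among the 138 members, 12 had over 50% of their summed CPM in 1 library: 8 in subcutaneous RTX 1, 2 in subcutaneous saline 1, and 1 each in JAK1 GOF recipient 2 and intrathecal RTX 2. Membership rests on counts summed over all libraries, and 8 members would fall under the limit without subcutaneous RTX 1. Among those were Ighv1-2, Igkv12-98, Igkv10-95 and Ighv3-4, each with over 50% of its summed CPM in that library. The number concentrated there was therefore partly set by the choice of members. The pseudogene Ighv1-2 was the most concentrated in subcutaneous RTX 1, with 91.5% of its summed CPM there and 17.9 CPM, followed by Igkv12-98 with 81.4% and 19.4 CPM. Igkv3-4 stood at 33.4 CPM in the same library and at most at 2.26 CPM in the other 13. In subcutaneous saline 1, Igkv3-2 stood at 46.5 CPM and Ighv1-42 at 16.6 CPM, against at most 11.7 and 1.63 CPM in any other library.

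With subcutaneous RTX, 137 members were tested and 0 were called by edgeR's quasi-likelihood test, as were 0% of the 17363 genes tested. At an unadjusted p under 0.05, 23 were higher and 0 lower. DESeq2 called 10 higher and limma voom 0. The share of all genes under the same rules is not given here, so these counts only describe the members. The fitted change was positive for 116 of 137, with a median of 0.81 beside −0.00 over all genes. Without subcutaneous RTX 1 the median was 0.20, with 84 of 128 positive, 20 higher and 7 lower at an unadjusted p under 0.05, and without subcutaneous saline 1 it was 1.25. The groups did not overlap for 33 of 137 in the higher direction, against 20.5% of all genes, and for 1 in the lower direction, against 17.8%. The share in the higher direction is near that of all genes. The smallest p belonged to Ighv13-2, a gene outside the naming rule, at 0.226 and 0.148 CPM with saline and at 1.30, 1.80 and 2.54 CPM with RTX (log2 3.26 ± 0.51, edgeR adjusted p = 0.0973). Iglv1 stood at 23.8 and 15.4 CPM with saline and at 81.6, 28.0 and 36.9 CPM with RTX (log2 1.30 ± 0.60, edgeR adjusted p = 0.358), without overlap. Ighv1-64 stood at 3.49 and 1.05 CPM with saline and at 9.90, 6.56 and 4.45 CPM with RTX (log2 1.60 ± 0.56, edgeR adjusted p = 0.223), also without overlap. When subcutaneous RTX 1 was left out 1 member was called, Igkv4-91 (lower), and without subcutaneous saline 2, 3 were called: Ighv13-2 higher, and Ighv1-42 and Igkv3-2 lower. B cell identity genes summed to 213 to 232 CPM with saline and to 365 to 597 CPM with RTX, with 0 of 16 called and 16 of 16 fitted changes positive. V gene CPM per CPM of these genes was 2.92 and 1.52 with saline and 2.79, 1.08 and 1.21 with RTX, which overlapped. Heart muscle genes summed to 123 to 456 CPM with saline and to 146 to 187 CPM with RTX, and 8 lung epithelium genes summed to 23018 to 31362 CPM with saline and to 16610 to 19273 CPM with RTX, without overlap, with 0 of 8 called and 8 of 8 fitted changes negative. The part of both lists in the result was not tested.

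With intrathecal RTX, 75 members were tested and 0 were called by edgeR's quasi-likelihood test, against 0.311% of the 17360 genes tested (0.109% higher and 0.202% lower). At an unadjusted p under 0.05, 2 were higher, Ighv1-64 and Igkv4-59, and 0 lower. DESeq2 called 1, Igkv4-59 (adjusted p = 0.0264), and limma voom 0. The share of all genes under the same rules is not given here. The fitted change was positive for 47 of 75, with a median of 0.28 beside 0.01 over all genes. That median had no stable sign or size: it was −0.43 without RTX 2 (19 of 53 positive), 1.40 without saline 1, 0.07 without saline 2, 0.61 without RTX 1 and 0.60 without RTX 3. It was 0.03 by limma voom (38 of 75 positive) and −0.60 in the joint fit with library state as a term. The groups did not overlap for 4 of the 75 in the higher direction, against 13.5% of all genes, and for 1 in the lower direction, against 16.8%. Igkv4-59 stood at 0.408 and 0.362 CPM with saline and at 2.01, 4.89 and 0.652 CPM with RTX (log2 2.68 ± 0.90, edgeR adjusted p = 0.341). Ighv1-64 stood at 0.378 and 0.317 CPM with saline and at 1.15, 1.47 and 0.504 CPM with RTX (log2 1.59 ± 0.57, edgeR adjusted p = 0.326). In both genes every RTX library was above every saline library. B cell identity genes summed to 180 to 183 CPM with saline and to 168 to 226 CPM with RTX. V gene CPM per CPM of these genes was 0.849 and 0.368 with saline and 0.450, 1.68 and 0.504 with RTX, so intrathecal RTX 2 stood out on this scale also. Of 13 plasma cell genes, 1 rose (Derl3, of endoplasmic reticulum associated degradation), and of 6 germinal centre and V(D)J recombination genes 1 rose (Basp1, log2 0.67 ± 0.08, edgeR adjusted p = 0.0117). In the fit that compared the subcutaneous with the intrathecal RTX effect, 137 members were tested and 0 differed by edgeR's quasi-likelihood test, against 0.0556% of the 17972 genes tested. At an unadjusted p under 0.05, 9 were higher and 2 lower, and DESeq2 called 2, Ighv1-9 and Igkv2-112, again without the share of all genes beside them.

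By family, the large Ighv1 family (33 members) held 21.5% and 21.6% of V counts in the WT recipients and 17.6% and 14.9% in the JAK1 GOF recipients, without overlap. Among the non-transplanted lungs it held 9.83% to 17.0% in the intrathecal and 12.6% to 23.0% in the subcutaneous libraries. Counts shared out over all 138 genes can be compared between libraries with the Morisita-Horn index, which is 1 for identical shares. Its median between replicates of a group was 0.675 in the chimera, 0.709 in the intrathecal and 0.60 in the subcutaneous experiment. Between the groups of an experiment the medians were 0.543, 0.806 and 0.663. In both RTX experiments the median between groups was above that between replicates, and in the chimera experiment it was below. Between chimera and other libraries the median was 0.458, and between intrathecal and subcutaneous libraries 0.694. Library pairs share libraries, so these medians are a description.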

How the data were processed

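RNA was measured in 14 lung libraries. Per the labels, mRNA was enriched with oligo-dT beads. Per the submitters' processing notes, tools included FastQC 0.11.8, Trim Galore 0.6.6, STAR 2.7.5b and Salmon 1.2.1, with build GRCm38; which annotation release and strand setting were used is not given in the sources used here. From these steps the authors deposited 3 tables of estimated counts per gene, 1 per experiment; 24.2% of all values, and 77.6% of the V gene values, were not whole. All sample columns were used. V genes matched GENCODE M21 by identifier (138 of 138). Counts were rounded and fitted per experiment with edgeR 4.0.16 in R 4.3.3 (TMM, filterByExpr with a minimum count of 10 and total of 15, robust quasi-likelihood F test), with Benjamini-Hochberg adjustment over all genes and a threshold of 0.05; the procedure was tested on simulated counts. CPM values are of library totals.

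Genes named were up to 8 called genes per direction and comparison, the 8 Ighv, 8 Igkv and all Iglv members with the highest mean share of their locus, up to 8 with 1 library over 50% of their CPM, and those next to the limit; other names were chosen after their values were seen. The members and lists were chosen with earlier results of these data known. Levels, shares and diversity were not tested. Alternatives were other scaling, filters, DESeq2 1.42.0, limma 3.58.1 voom, joint fits, a replicate block, other diversity measures and leaving out each library; the ratios by locus and outside the B-1 pairs without 1 RTX library were added after seeing the data. Figures used matplotlib 3.10.9.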

Additional observations from a re-analysis of the deposited data

How the results depend on the processing

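In the chimera experiment 46 V genes were called with no low-count filter, 21 by DESeq2, 2 by limma voom and 0 with all 14 libraries in 1 fit, beside 7 in the reported fit; leaving out 1 library gave 4 to 36. In the intrathecal experiment 3 were called with no filter and 1 by DESeq2, and leaving out 1 library gave 0 to 1. In the subcutaneous experiment 13 were called with no filter, 10 by DESeq2 and 2 in a joint fit with library state as a term, and leaving out 1 library gave 0 to 3. For the difference between the RTX effects DESeq2 called 2, and leaving out 1 library gave 0 to 1. Where leaving out a library leaves 1 in a group, that library is assumed to vary like the others. The share of all genes called under each of these settings is not given, so the counts describe the members only. With the replicate number as a block 11 were called in the chimera and 2 (Igkv4-59 and Igkv1-135) in the intrathecal experiment, and it changed no other count of calls by over 1.5 times. The block rests on a shared number only, since deviations of same-numbered libraries correlated at 0.02 in the chimera, −0.27 and −0.20 in the intrathecal and −0.11 and −0.09 in the subcutaneous experiment. Iglv1 in the chimera experiment changed sign with library state as a term (−0.17) and without JAK1 GOF recipient 1 (−0.0353), and leaving out 1 library gave −0.0353 to 0.36.

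The log2 ratio of V levels was −1.21 in the chimera experiment among members with a sum of at least 1000, and leaving out 1 library gave −1.21 to −1.16, −0.44 to 1.45 in the intrathecal and −0.17 to 1.26 in the subcutaneous experiment. The chimera difference in effective number was −20.1 with the inverse Simpson index, 2.19 as the expected number at a common depth, −2.29 with the higher limit, −4.76 for Ighv, −0.48 for Igkv and −0.23 for Iglv. The intrathecal one was −0.98 with the higher limit and 0.0333 for Iglv. The subcutaneous one changed sign with the higher limit. Leaving out 1 library gave −17.9 to −9.51, −15.7 to −6.16 and 0.52 to 20.4 in the 3 experiments, and for the share of the 10 leading genes 4.92 to 10.8, 3.01 to 10.2 and −12.8 to −0.69. The causes were not tested. Genes under about 0.15 CPM rest on 3 counts or fewer.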
